A study of Mus musculus with 4 samples.

Results

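The epidermal growth factor (EGF) receptor family was followed through 10 genes in MMTV-Myc cells, cells of mouse mammary tumours in which the mouse mammary tumour virus promoter drives Myc. The genes were 3 receptors (Egfr, Erbb2 and Erbb3), 6 EGF-type ligands (Areg, Ereg, Epgn, Btc, Hbegf and Tgfa) and the receptor inhibitor Errfi1. They, and the gene lists used below, were chosen with earlier results of these data known, so their counts beside all rows only describe them. Each of the 10 genes matched a single row in both deposited tables. These held 22440 rows for mammosphere and bulk cells and 11708 rows for Cbx8 knockdown and control cells. Polyadenylated RNA came from 4 samples, 1 library in each group. The mammosphere library was from wild-type MMTV-Myc cells at day 20, kept as floating spheres on low-attachment plates with 20 ng/ml EGF, 20 ng/ml bFGF and a supplement, and passaged every 4 days. The bulk library was from the wild-type line at day 0, grown with 2% serum and 10 µg/ml insulin and with no EGF named in the labels' protocols. The knockdown library was from cells with the short hairpin RNA (shRNA) sh68, which targets Cbx8, a Polycomb repressive complex component with a chromodomain. Its control, whose genotype is labelled wild type, carried an shRNA named as directed against luciferase in one label and as scrambled in another. Hairpins were delivered by lentivirus and the cells kept under 2 µg/ml puromycin. The sources used here give neither the growth format (attached or spheres) of the shRNA cultures nor whether the line is 1 clone.

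Receptors of this family are tyrosine kinases that pair when a ligand binds, and signal mainly through the Ras and ERK cascade and through PI3K and AKT. The ligands are made as membrane-anchored precursors and are released by metalloproteases such as ADAM17. ERBB2 has no known ligand of its own, and ERBB3, whose kinase is weak, binds neuregulins. In the mouse mammary gland amphiregulin (Areg) is known as the EGFR ligand needed for duct outgrowth at puberty. Several ligand genes and Errfi1 are themselves induced by ERK signalling in many epithelial cells, so that the family contains both forward and feedback loops.

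With 1 library in each group there was no replicate. Each difference below therefore compares a pair of libraries and carries no estimate of biological spread or any p-value of its own. The authors' p and q values quoted below come from the same unreplicated libraries, so they do not measure variation between cultures either. Levels are given as FPKM, the fragments seen per kilobase of a transcript after correction for the size of the library. Log2 changes were taken within a table after adding 1 FPKM to both values, which understates the change of low genes, and a difference counted once it reached 2-fold on that scale. The tables came from separate runs, so no level in one is tested or ranked against a level in the other. Neither table holds counts, so depth is unknown. The number of rows at 1 FPKM or more was 10495 in the mammosphere library and 11306 in the bulk library, 10551 in the knockdown and 10553 in the control library. Cbx8 was at 1.23 FPKM in the knockdown and 4.74 FPKM in the control library, 3.84-fold lower as a plain ratio, and its q was 0.385 in the authors' deposited table.

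The labelled origin was checked against mammary epithelial markers. The luminal keratin Krt18 was at 58.2 FPKM in mammospheres, 570 FPKM in bulk cells, 256 FPKM in knockdown cells and 261 FPKM in control cells. The luminal transcription factor Gata3 was at 18.5 FPKM in mammospheres, 24.98 in bulk cells, 41.6 in knockdown cells and 39.8 in control cells. The epithelial adhesion genes Epcam and Cdh1 were at 0.0908 and 0.0135 FPKM in mammospheres against 1.06 and 1.04 FPKM in bulk cells, and at 0.0427 and 0.206 FPKM in knockdown cells against 0.338 and 0.283 FPKM in control cells. Krt18 and Gata3 transcripts were therefore present in every library, and Epcam and Cdh1 were at 1.06 FPKM or less. Other markers varied. Krt8 was at 5.14 FPKM in mammospheres against 334 in bulk cells, and Krt19 at 9.65 against 9.08. The junction gene Cldn3 was at 0.276 against 1.77, but at 24.9 in knockdown and 22.8 in control cells. Krt7, Muc1, Elf5, Foxa1, Esr1, Pgr and Prlr were under 1 FPKM in mammospheres and bulk cells, and Krt5, Krt14 and Krt17 in mammospheres. The markers thus bear out the labelled origin only in part.

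In mammospheres the EGF-type ligand transcripts were mostly far below those of bulk cells, with Tgfa as the exception. Of the 10 genes, 6 were at least 2-fold lower in mammospheres (Hbegf, Errfi1, Ereg, Epgn, Egfr and Areg), 1 was at least 2-fold higher (Tgfa) and 3 did not reach 2-fold (Btc, Erbb2 and Erbb3). Among all 11630 rows with 1 FPKM or more in either library, 17.2% were at least 2-fold lower and 3.55% at least 2-fold higher. Erbb3 was the 1 gene of the 10 below that minimum in both libraries, and Egfr and Epgn reached it only through the bulk library, where they were higher, so their inclusion favoured a difference. The authors had tested 4 of the 10 genes (Areg, Ereg, Hbegf and Errfi1). All 4 were at least 2-fold lower, beside 16.2% lower and 3.73% higher among the 4045 rows they tested. For the same 4 the authors' deposited table lists q under 0.05, beside 10.2% of tested rows lower and 1.73% higher at that q. The median log2 change of the 10 genes was −2.18, against −0.24 for all rows at the minimum.

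Among the receptors, Egfr, the receptor for all 6 ligands, was at 0.872 FPKM in mammospheres against 8.06 FPKM in bulk cells (mm9 chromosome 11, 16652205 to 16813910). Its log2 change was −2.28, or 9.24-fold lower as a plain ratio. The authors did not test this row (p = 2.86e-07 but q set at 1 in the authors' deposited table). Erbb2, the receptor that acts as a partner of the others, was at 3.22 FPKM in mammospheres against 5.10 FPKM in bulk cells (chromosome 11, 98273797 to 98300302), a log2 change of −0.53. Erbb3, the neuregulin receptor, was at 0.297 FPKM in mammospheres and 0.198 FPKM in bulk cells (chromosome 10, 128006423 to 128026557). It was under 1 FPKM in every library, so its ratio says little. The Egfr transcript was thus more abundant than Erbb2 in bulk cells (1.58 times its FPKM) and less abundant in mammospheres (0.271 times).

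The ligand with the highest level in bulk cells was Hbegf, heparin-binding EGF-like growth factor, at 15.2 FPKM in mammospheres against 229 FPKM in bulk cells (chromosome 18, 36664580 to 36675459). Its log2 change was −3.83, the lowest of the 10 genes at this pseudocount (with 0.1 FPKM Epgn was lower, at −5.21 against −3.91 for Hbegf), and 140 of the 11630 rows had a lower one. The authors' deposited table gave it q = 1.01e-09. Ereg, encoding epiregulin, was at 13.9 FPKM in mammospheres against 133 FPKM in bulk cells (log2 change −3.17, q = 4.13e-07 in the authors' deposited table). Areg, encoding amphiregulin, was at 18.5 FPKM in mammospheres against 82.1 FPKM in bulk cells (log2 change −2.09, q = 0.00256 in the authors' deposited table). Hbegf, Ereg and Areg were therefore the 3 leading ligands of bulk cells, and all 3 were lower in mammospheres.

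Epgn, encoding epigen, was at 0.0646 FPKM in mammospheres against 5.995 FPKM in bulk cells, a log2 change of −2.72. The mammosphere value is close to nothing, so the size of a plain ratio has no firm meaning here. Btc, encoding betacellulin, was at 4.76 FPKM in mammospheres against 7.84 FPKM in bulk cells, a log2 change of −0.62 that did not reach 2-fold. Tgfa, encoding transforming growth factor alpha, was at 17.9 FPKM in mammospheres against 5.38 FPKM in bulk cells (chromosome 6, 86145244 to 86225443). Its log2 change was 1.57, or 3.33-fold higher as a plain ratio, and 137 of the 11630 rows had a higher one. The authors did not test this row (p = 0.00361 in the authors' deposited table).

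Errfi1, also called Mig6, encodes a feedback inhibitor that binds the receptor kinase domain. It was at 14.2 FPKM in mammospheres against 142 FPKM in bulk cells (chromosome 4, 150229199 to 150242989). The log2 change was −3.23, and the authors' deposited table gave it q = 1.79e-07. The inhibitor and the 3 leading ligands of bulk cells were thus all lower in mammospheres.

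**Figure D1:**
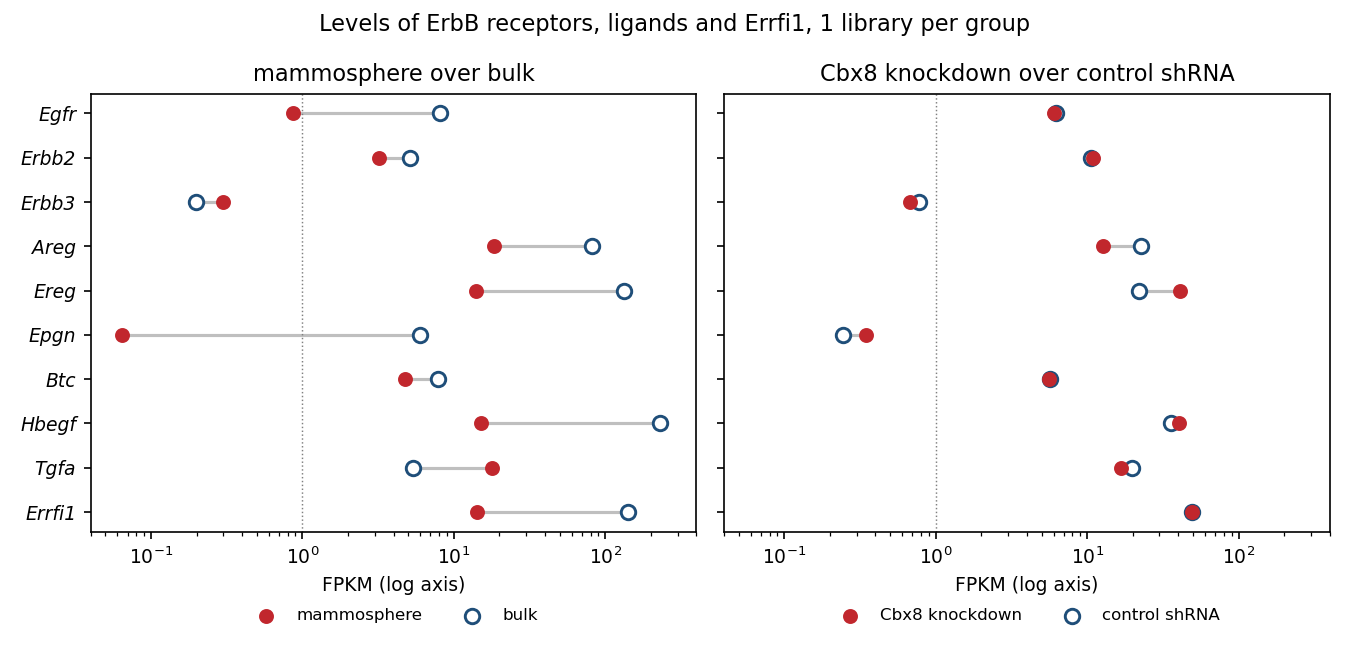
FPKM of each gene on a log axis, 1 point per library, with mammosphere (filled) and bulk (open) on the left and Cbx8 knockdown (filled) and control shRNA (open) on the right; grey lines join the pair and the dotted line marks 1 FPKM. Egfr, Areg, Ereg, Epgn, Hbegf and Errfi1 lie far to the left in mammospheres and Tgfa to the right, whereas in the knockdown pair Areg and Ereg are the furthest apart of the genes above 1 FPKM.

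The order of levels differed between these libraries. In mammospheres it was Areg (18.5 FPKM), Tgfa (17.9), Hbegf (15.2), Errfi1 (14.2), Ereg (13.9), Btc (4.76), Erbb2 (3.22), Egfr (0.872), Erbb3 (0.297) and Epgn (0.0646). In bulk cells it was Hbegf (229 FPKM), Errfi1 (142), Ereg (133), Areg (82.1), Egfr (8.06), Btc (7.84), Epgn (5.995), Tgfa (5.38), Erbb2 (5.10) and Erbb3 (0.198). Without replicates, neighbours in these orders cannot be said to differ. The summed FPKM of the 6 ligands was 70.4 in mammospheres and 464 in bulk cells, 6.60-fold lower.

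The make-up of that sum also differed. Tgfa made up 25.5% of the ligand FPKM in mammospheres against 1.16% in bulk cells, and Areg 26.2% against 17.7%. Hbegf made up 21.6% in mammospheres against 49.4% in bulk cells, and Ereg 19.8% against 28.7%. Ligand transcripts in bulk cells were thus headed by Hbegf, whereas in mammospheres Areg, Tgfa, Hbegf and Ereg had similar shares. These shares carry no interval, since the files give no counts.

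**Figure D2:**
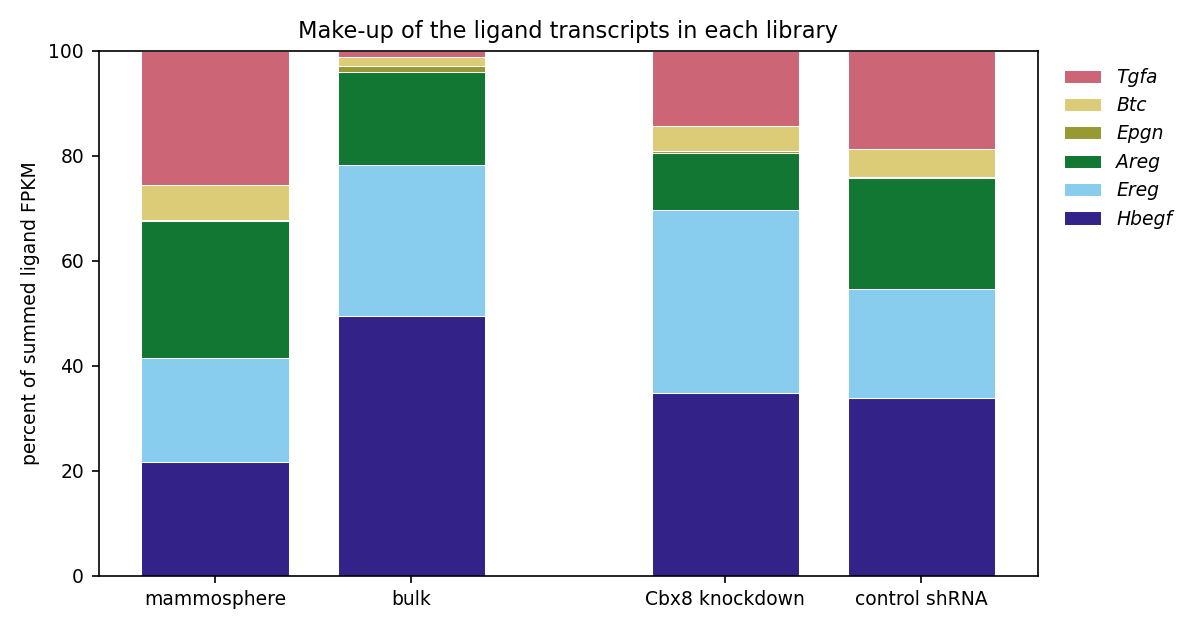
Share of each ligand in the summed FPKM of the 6 ligands, in percent, with 1 bar per library (mammosphere, bulk, Cbx8 knockdown, control shRNA). Hbegf is the largest block in bulk cells (49.4%) and Tgfa one of the largest in mammospheres (25.5%), and the Ereg block is larger in knockdown (34.9%) than in control cells (20.8%).

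Epgn, Ereg, Areg and Btc lie side by side on mouse chromosome 5, and the deposited table placed them within 375.5 kb (mm9, 91456542 to 91832020). The only other row within that interval was Gm19619, between Areg and Btc, at 0.0992 FPKM in mammospheres and 0.0328 FPKM in bulk cells. Epgn (91456542 to 91464238), Ereg (91503642 to 91522675) and Areg (91568640 to 91577458), which follow each other without another listed row, were each at least 2-fold lower in mammospheres, whereas Btc (91786286 to 91832020), at the far end, was not. The cluster thus held genes of different level and of different change. The other 6 genes lie outside it, on chromosomes 4, 6, 10, 11 and 18.

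Promoter windows of 300 bases (250 before to 50 after the annotated start) were taken from RefSeq on build GRCm38.p6, which differs from the mm9 build of the tables. They covered 7 of the 10 genes (Areg, Btc, Egfr, Epgn, Erbb2, Errfi1 and Tgfa) in 8 windows. Both strands were searched for the CRE core TGACGT, bound by CREB and ATF factors, for the AP-1 motif TGANTCA and for the TEAD motif GGAATG. The CRE core was in 2 of the 8 windows, those of Areg and of 1 of the starts of Errfi1, and in 7.51% of all 32851 windows of the table. In both it lay within the longer palindrome TGACGTCA, so that the matches on the 2 strands overlap. The AP-1 motif was in 0 of the 8 windows (7.81% of all windows), and the TEAD motif in 2, those of Erbb2 and of the other start of Errfi1 (14.7% of all windows). The windows of Areg and Errfi1, both lower in mammospheres, are given with the CRE match in capitals, beside that of Tgfa, which was higher in mammospheres. None of the 3 motifs was in the window of Tgfa, nor in those of Egfr and Epgn, which were also lower in mammospheres, or of Btc.
Areg, chr5:91139349-91139648, plus strand: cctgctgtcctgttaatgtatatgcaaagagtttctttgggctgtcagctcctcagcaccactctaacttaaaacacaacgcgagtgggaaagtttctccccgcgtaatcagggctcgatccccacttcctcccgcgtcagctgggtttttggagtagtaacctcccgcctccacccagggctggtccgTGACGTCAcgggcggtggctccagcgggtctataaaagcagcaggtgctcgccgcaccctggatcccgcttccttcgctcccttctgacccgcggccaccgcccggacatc
Errfi1, chr4:150854820-150855119, plus strand: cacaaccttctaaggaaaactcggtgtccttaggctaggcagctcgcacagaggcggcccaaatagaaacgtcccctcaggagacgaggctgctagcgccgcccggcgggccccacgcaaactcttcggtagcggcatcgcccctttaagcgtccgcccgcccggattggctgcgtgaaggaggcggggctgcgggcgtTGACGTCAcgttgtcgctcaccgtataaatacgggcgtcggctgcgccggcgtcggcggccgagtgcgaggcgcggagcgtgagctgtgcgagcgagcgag
Tgfa, chr6:86194972-86195271, plus strand: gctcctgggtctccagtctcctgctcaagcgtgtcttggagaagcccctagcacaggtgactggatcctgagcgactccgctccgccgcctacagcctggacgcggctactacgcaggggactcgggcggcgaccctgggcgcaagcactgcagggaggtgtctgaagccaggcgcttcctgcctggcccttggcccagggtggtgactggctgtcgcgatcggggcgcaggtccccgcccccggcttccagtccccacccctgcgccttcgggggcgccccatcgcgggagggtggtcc
The capitals begin 61 bases before the annotated start in Areg and 51 bases before it in Errfi1. A match is a string of letters in this window and does not show that a factor binds there.

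Further lists covered the remaining family, ligand shedding, adaptors, negative regulators, kinase cores and ERK-induced genes. They held 100 gene symbols, of which Hras1 and Hras name the same gene, and 89 were at 1 FPKM or more in either library. Of the 89, 20 were at least 2-fold lower in mammospheres and 1 higher, beside 17.2% lower and 3.55% higher among all rows. After centring on the median gene 11 were lower and 3 higher, and with equal upper quartiles 12 and 3. Of the other family genes, the ERBB3 and ERBB4 ligand Nrg1 was at 0.0902 FPKM in mammospheres against 1.496 FPKM in bulk cells. It reached the 1 FPKM minimum only through bulk cells. The remainder (Erbb4, Egf, Nrg2, Nrg3 and Nrg4) were under 1 FPKM in both, with Nrg3 listed at 0 in both libraries and Erbb4 listed at 0 in mammospheres.

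The ligand shedding list had 3 of 11 genes lower and none higher, beside 17.2% lower and 3.55% higher among all rows. Its median log2 change was −0.13. After centring or with equal upper quartiles 2 were lower and 1 higher. Over all 11630 rows centring gave 1506 lower and 695 higher. Timp3, an inhibitor of ADAM17, was at 0.00382 FPKM in mammospheres against 11.3 FPKM in bulk cells. It reached the 1 FPKM minimum only through bulk cells. The metalloprotease Adam8 was at 5.98 FPKM in mammospheres against 23.4 FPKM in bulk cells. Rhbdf1, an iRhom that escorts ADAM17, was at 22.1 against 46.9 FPKM. An inhibitor and an escort of ADAM17 were thus lower (for Rhbdf1 q = 0.229 in the authors' deposited table). Adam17 itself, which releases most of these ligands, was at 50.8 FPKM in mammospheres against 26.2 FPKM in bulk cells. Its log2 change was 0.93 (q = 0.357 in the authors' deposited table). The other iRhom, Rhbdf2, was at 23.9 against 20.7 FPKM, and the iRhom cofactor Frmd8 at 22.6 against 20.7 FPKM. Adam17, Rhbdf2 and Frmd8 were named after their values were seen.

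Of 13 adaptor genes (median −0.05), 1 was lower, beside 17.2% lower and 3.55% higher among all rows. After centring or with equal upper quartiles 0 were lower. The lower gene was Grb2, which links receptors to Sos, at 17.2 FPKM in mammospheres against 37.3 FPKM in bulk cells. The docking protein Gab1 was at 2.90 against 6.12 FPKM and the phospholipase Plcg1 at 25.2 against 17.0 FPKM, neither of them past the limit. None of 12 genes of the Ras, Raf, MEK and ERK core (median −0.22) and none of 12 genes of the PI3K and AKT core (median −0.18) reached 2-fold. The kinase Map2k2 was at 19.4 FPKM in mammospheres against 34.8 FPKM in bulk cells, the scaffold Ksr1 at 6.43 against 3.28, and the catalytic subunit Pik3cb at 4.06 against 7.61. Pik3cd was at 0.613 FPKM in mammospheres against 1.71 in bulk cells.

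Scaling alone turned the sign of these small medians. The whole table leaned to lower values in mammospheres, and with changes centred on the median gene the shedding, adaptor and PI3K lists stood at 0.08, 0.16 and 0.03, and the Ras to ERK core at −0.01. With equal upper quartiles the Ras to ERK core stood at 0.09. Under either scaling 1 gene of the Ras to ERK core and 0 of the PI3K and AKT core were at least 2-fold higher, and 0 of either lower.

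Of 22 negative regulators other than Errfi1, 4 were lower, none higher, and the median was −0.14, or 0.07 when centred. After centring or with equal upper quartiles 2 were lower, and the count of 4 is a share close to the 17.2% of all rows. The signalling suppressor Socs3 was at 5.30 FPKM in mammospheres against 47.4 FPKM in bulk cells, and the antiproliferative protein Tob1 at 18.3 against 91.0 FPKM, both with q under 0.05 in the authors' deposited table (8.07e-07 and 0.000441). The phosphatase Ptpn2 was at 13.6 FPKM in mammospheres against 29.8 FPKM in bulk cells. Spry1, named after its values were seen to complete the 4, was at 0.727 against 2.49 FPKM. It reached the 1 FPKM minimum only through bulk cells.

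Of 22 ERK-induced feedback and target genes, 11 were lower and 1 was higher, beside 17.2% lower and 3.55% higher among all rows. The median was −0.97, beside −0.24 for all rows. Of the 22, 2 reached the 1 FPKM minimum only through bulk cells, where they were higher, and both count among the 11. Myc, named after its values were seen, is also among the 11, at 361 FPKM in mammospheres against 815 FPKM in bulk cells. Its q was 0.131 in the authors' deposited table, and whether transgene transcripts are counted in its row was not tested. Fos was at 10.5 FPKM in mammospheres against 799 FPKM in bulk cells, Egr1 at 10.0 against 431 FPKM, and Phlda1 at 21.7 against 160 FPKM, each with q under 0.05 in the authors' deposited table. Not all members of the list were low. Etv5, an ETS factor induced by growth factor signalling, was the higher one at 44.9 FPKM in mammospheres against 18.7 FPKM in bulk cells (q = 0.139 in the authors' deposited table). The ERK phosphatase Dusp6 was at 61.3 FPKM in mammospheres against 61.0 FPKM in bulk cells. These last genes were named after their values were seen. With changes centred on the median gene, 7 of the 22 were lower and 1 higher, and the median was −0.76. Among all 11630 rows that setting gave 1506 lower and 695 higher. With equal upper quartiles 7 of the 22 were lower and 1 higher, with a median of −0.60, beside 1482 lower and 783 higher rows.

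**Figure D3:**
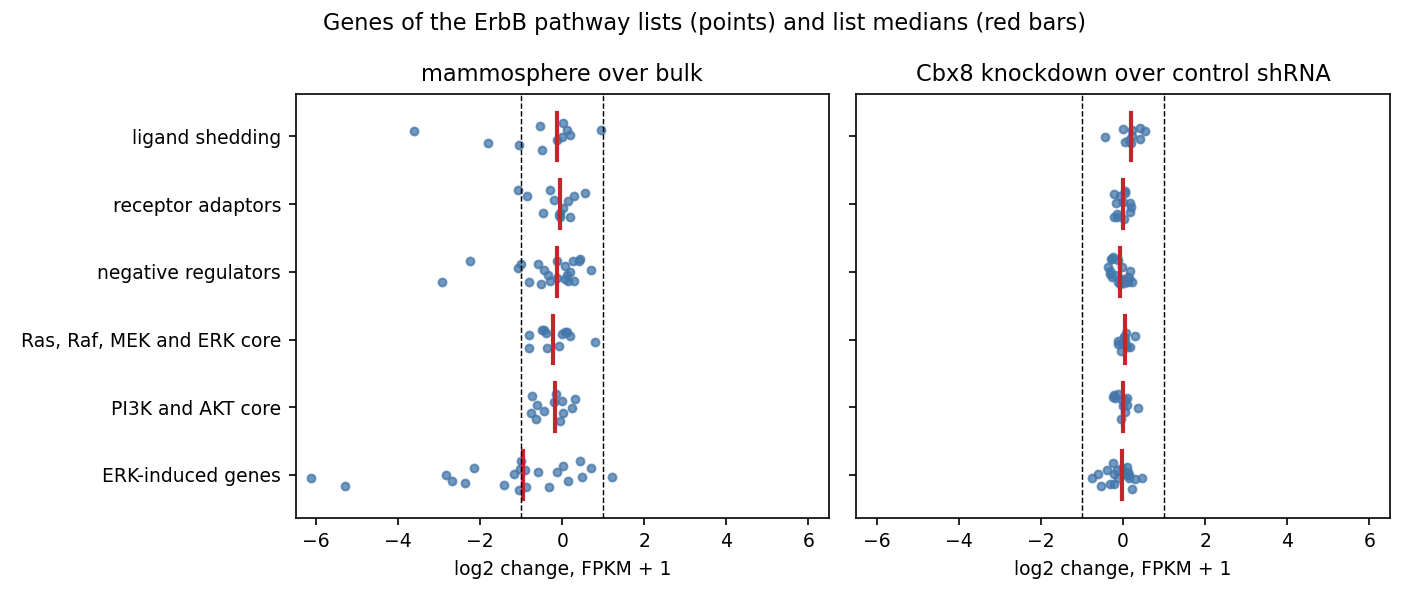
Log2 change (FPKM + 1) of each gene at 1 FPKM or more (points) in 6 pathway lists, with list medians as red bars and the 2-fold limits as dashed lines; mammosphere over bulk on the left, Cbx8 knockdown over control shRNA on the right. In mammospheres the ERK-induced list has the lowest median (−0.97), and in the knockdown no point passes a 2-fold limit.

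Summed transcripts that mark leukocytes, fibroblasts and endothelial cells were also lower in mammospheres. Most markers at the 1 FPKM minimum reached it only through bulk cells, so the minimum itself favoured a lower value in mammospheres, and they are described here by their summed FPKM over all listed markers. The 15 leukocyte markers, of which 14 reached the minimum only through bulk cells, summed to 8.78 FPKM in mammospheres against 444 FPKM in bulk cells, and Tyrobp, Fcer1g, Emr1 and Cd3e were listed at 0 in mammospheres. The 12 fibroblast markers (11 at the minimum, 10 of them only through bulk cells) summed to 4.29 FPKM in mammospheres against 477 FPKM in bulk cells, and Postn, Thy1 and Lum were listed at 0 in mammospheres. The 7 endothelial markers (3 at the minimum, all 3 only through bulk cells) summed to 0.941 FPKM in mammospheres against 10.6 FPKM in bulk cells. Tek and Emcn, listed at 0 in mammospheres, were at 0.238 and 0.530 FPKM in bulk cells, under the minimum. The 14 luminal markers (7 at the minimum, 3 only through bulk cells) summed to 92.2 FPKM in mammospheres against 945 FPKM in bulk cells. Pgr and Prlr, listed at 0 in mammospheres, were near absent in bulk cells too, at 0.0627 and 0.141 FPKM. The 9 basal markers (4 at the minimum, 3 only through bulk cells) summed to 6.78 FPKM in mammospheres against 53.7 FPKM in bulk cells, and of those listed at 0 in mammospheres Cnn1 was at 1.94 FPKM and Trp63 at 0.227 FPKM in bulk cells. The 5 adipocyte markers, of which 2 were at the minimum, summed to 19.5 FPKM in mammospheres against 17.2 FPKM in bulk cells. The part of these cells in the lower ligand, Egfr and Errfi1 transcripts was not tested. In such samples fewer cells of a type and less RNA per cell cannot be told apart. Medium, attachment, serum, added EGF and time in culture all differ between these libraries and cannot be told apart either.

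In the knockdown comparison the receptors and Errfi1 had almost the same levels in both libraries, and Areg and Ereg differed in opposite directions without reaching 2-fold. None of the 10 genes reached 2-fold in either direction, beside 0.299% of 10685 rows higher and 0.449% lower, and the authors' deposited table lists none of them at q under 0.05, beside 0.128% of 11708 rows higher and 0.0769% lower there. Erbb3 and Epgn were under 1 FPKM in both libraries, and the other 8 genes were above it in both. The median log2 change of the 10 genes was −0.02, against −0.0061 for all rows at the minimum.

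Ereg was at 40.8 FPKM in the knockdown library against 22.2 FPKM in the control library, 1.84-fold higher as a plain ratio. Its log2 change was 0.85, and 70 of the 10685 rows had a higher one. In the authors' deposited table it had p = 0.00195 and q = 0.341. Its chromosome 5 neighbour Areg was at 12.7 FPKM in the knockdown library against 22.6 FPKM in the control library, 1.78-fold lower. The log2 change was −0.79, and 104 of the 10685 rows had a lower one. In the authors' deposited table Areg had p = 0.0201 and q = 0.967. The ratio of Ereg to Areg FPKM was 3.22 in the knockdown and 0.982 in the control library.

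The remaining ligands differed less. Hbegf was at 40.6 FPKM in the knockdown library against 36.0 FPKM in the control library (log2 change 0.17). Tgfa was at 16.8 FPKM in the knockdown library against 19.9 FPKM in the control library (log2 change −0.23). Btc was at 5.56 against 5.72 FPKM, and Epgn at 0.345 against 0.245 FPKM, too low for its ratio to carry weight. The summed ligand FPKM was 117 in the knockdown and 107 in the control library, and in it Ereg made up 34.9% against 20.8% and Areg 10.8% against 21.2%. The sum was thus within 1.10-fold while the Ereg share was larger and the Areg share smaller in the knockdown library.

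Egfr was at 6.05 FPKM in the knockdown library against 6.22 FPKM in the control library, and Erbb2 at 10.9 against 10.6 FPKM. Erbb3 was at 0.681 against 0.779 FPKM. Errfi1 was at 49.0 FPKM in the knockdown library against 49.4 FPKM in the control library. It had the highest level of the 10 genes in both, followed by Ereg, Hbegf, Tgfa and Areg in the knockdown library and by Hbegf, Areg, Ereg and Tgfa in the control library. As no library was replicated, these small differences cannot be told from the variation between cultures.

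**Figure D4:**
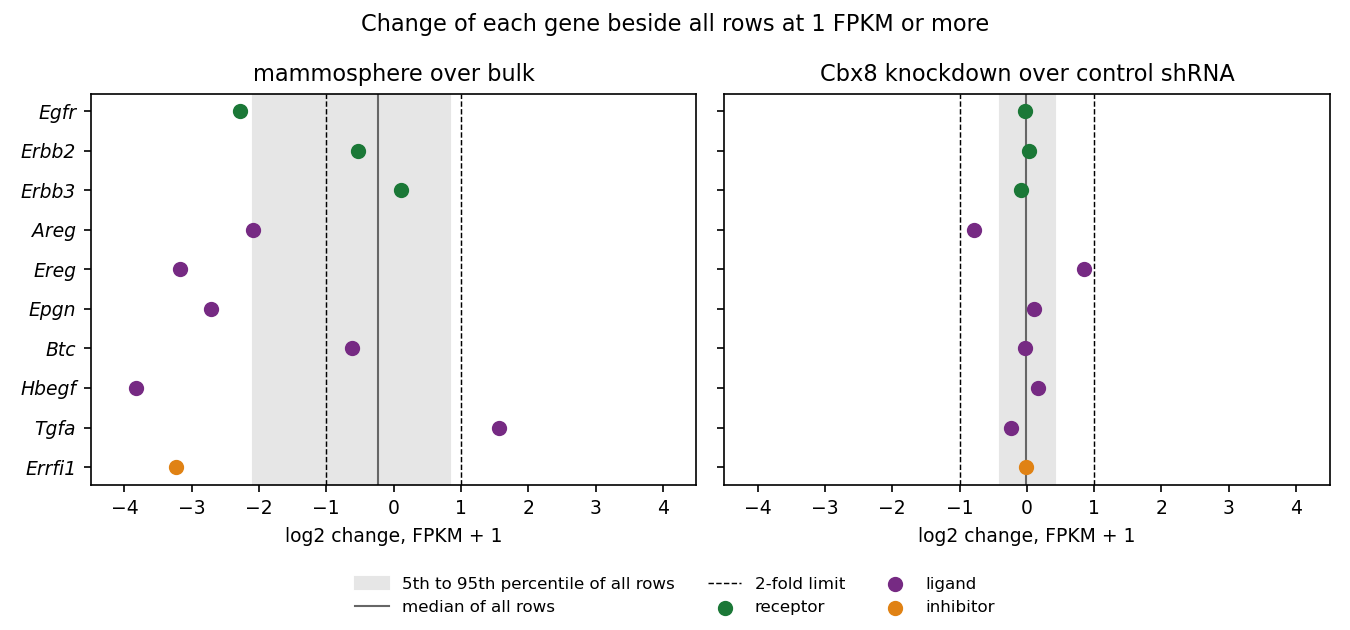
Log2 change (FPKM + 1) of each gene, coloured by role, beside the median (grey line) and the 5th to 95th percentile (grey band) of all rows at 1 FPKM or more; dashed lines are the 2-fold limits, with mammosphere over bulk on the left and Cbx8 knockdown over control shRNA on the right. In the mammosphere panel Egfr, Ereg, Epgn, Hbegf and Errfi1 lie below the band, Areg (−2.09) on its edge and Tgfa above it, and in the knockdown panel Ereg (0.85) and Areg (−0.79) lie outside a much narrower band but inside the 2-fold limits.

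None of the 87 pathway genes at the minimum in the knockdown table reached 2-fold. Of the ERK-induced genes (21 at the minimum, median −0.03), Myc was at 301 FPKM in the knockdown library against 511 FPKM in the control library; whether transgene transcripts are counted in this row was not tested (log2 change −0.76, q = 0.490 in the authors' deposited table). Etv1 was at 5.74 against 9.26 FPKM and Ier3 at 149 against 218 FPKM. The shedding list (10 genes) had a median of 0.20, beside −0.0061 for all rows at the minimum. Adam8 was at 13.5 FPKM in the knockdown library against 9.12 FPKM in the control library and Adam9 at 96.6 against 72.0 FPKM, whereas the iRhom cofactor Frmd8 was at 21.2 against 29.2 FPKM.

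The medians of adaptors (−0.01, 13 genes), negative regulators (−0.08, 21 genes), the Ras to ERK core (0.04, 12 genes) and the PI3K and AKT core (−0.01, 12 genes) were close to that of all rows. Among their largest differences, the leucine-rich repeat protein Lrig3 was at 2.42 FPKM in the knockdown library against 3.40 in the control library, Spry4 at 6.91 against 8.95, the phosphatase Ptprj at 17.1 against 21.6, and the MEK kinase Map2k1 at 77.7 against 63.0. Pik3cb was at 19.6 FPKM in the knockdown library against 15.0 in the control library. Sos1 was at 8.86 against 10.5 FPKM, Plcg1 at 24.9 against 29.1, Ptpn11 at 64.1 against 56.4, and Pik3r2 at 41.6 against 48.6. The ERK kinase Mapk3 was at 78.1 FPKM in the knockdown library against 84.8 in the control library, and Hras1 at 37.5 against 33.2. Of the other family genes, Nrg1 was at 1.22 FPKM in the knockdown library against 1.11 in the control library, Nrg2 at 1.03 against 0.800 and Nrg4 at 0.207 against 0.344. All of these differences were under 2-fold.

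Of 16 leukocyte marker symbols, with Adgre1 and Emr1 naming the same gene, 3 were listed in the knockdown table. Of these, 1 was at the minimum, Cd14, at 41.0 FPKM in the knockdown library against 27.1 FPKM in the control library. Of 12 fibroblast markers 4 were listed, with a summed FPKM of 75.1 in the knockdown and 60.5 in the control library. Most of that sum was Fbln2, at 73.4 against 56.7 FPKM. Col3a1 was at 0.675 against 2.33 FPKM, Col1a1 at 0.441 against 0.880 and Pdgfra at 0.600 against 0.552. The basal keratin Krt14 was at 10.5 FPKM in the knockdown library against 1.09 FPKM in the control library (q = 0.0325 in the authors' deposited table). Luminal markers summed to 475 FPKM in the knockdown and 478 FPKM in the control library, and the 1 endothelial marker listed, Eng, was at 1.41 against 1.305 FPKM. Of 5 adipocyte markers 2 were listed, with a summed FPKM of 34.1 in the knockdown and 27.9 in the control library. Most of it was Lpl, at 33.7 against 26.9 FPKM, whereas Fabp4 was at 0.447 against 1 FPKM. Fabp4 reached the 1 FPKM minimum only through the control library, at a value of exactly 1. In this comparison 15 rows held a value of exactly 1, and the origin of such values was not examined. The part of these marker differences in the Ereg and Areg values was not tested. The table holds no row at 0, so markers at 0 in a library may be missing from it.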

How the data were processed

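The build mm9 and the tools TopHat 1.4.0, Cufflinks 1.3.0, Cuffdiff (version written as 0.0.7) and FastQC 0.10.0 are named per the submitters' processing notes, without settings. Per the labels, reads were single-end, 100 nt. The authors deposited 2 Cuffdiff tables with FPKM per row, and the same deposited tables give their p-value and q-value and a log2 fold change as other values. How reads shared between genes were assigned, and whether strand was kept, is unstated in the sources used here. In the RefSeq table (GRCm38.p6) the annotated span of 6 of the 10 genes overlaps that of another gene (Egfr, Erbb2, Erbb3, Ereg, Hbegf and Errfi1). How many reads fall in the shared stretches was not measured, and without strand such reads cannot be assigned. Depth is unknown, and no interval or detection limit was computed.

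Each gene was taken from its row of highest mean FPKM (1 row each here). Log2 changes used a pseudocount of 1 FPKM, with the mammosphere over the bulk and the knockdown over the control library. Counts took rows at 1 FPKM or more in either library, whatever the authors' test status, with a limit of 2-fold. The members and lists were chosen with earlier results of these data known. Named genes are the 10 members, the other family genes, Cbx8, and up to 3 genes of each pathway list with the largest absolute change, some of which are not reported here; others are marked. The sum over rows of the same symbol, other pseudocounts (0.1 and 5), minimums (none and 5), limits (1.5 and 4), scalings, tested rows only and the authors' calls were alternatives. The counting step was tested on simulated data. Python 3.11.15, pandas 2.3.3, numpy 2.4.6 and matplotlib 3.10.9 were used.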

Additional observations from a re-analysis of the deposited data

How the results depend on the processing

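No paired analysis was possible because each group is 1 library with no replicate to pair or leave out. The median gene at 1 FPKM or more in both libraries stood at −0.21 (log2, plain ratio) in mammospheres over bulk cells, and at −0.0065 in the knockdown comparison. In mammospheres the count of 6 lower genes among the 10 fell to 4 with tested rows only and by the authors' q. Egfr and Epgn, which the authors did not test, then dropped out. The count was 7 with a limit of 1.5-fold and 6 under the other alternatives. For higher genes it was 1 except with a limit of 4-fold, with tested rows only and by the authors' q, each giving 0. No gene of the 10 crossed the 2-fold limit under another pseudocount, scaling or summing of rows; Egfr ranged from −3.07 to −1.15, Epgn from −5.21 to −1.12 and Tgfa from 1.14 to 1.85. In the knockdown comparison a limit of 1.5-fold gave 1 higher (Ereg) and 1 lower (Areg) gene, against 0 and 0.

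Over all rows, 413 were higher and 2003 lower in mammospheres (17.1% of calls higher), 695 and 1506 after centring (31.6%) and 783 and 1482 with equal upper quartiles (34.6%). A pseudocount of 0.1 gave 670 higher and one of 5 gave 145 higher and 961 lower. Limits of 1.5 and 4 gave 1147 and 63 higher and 3572 and 644 lower, tested rows alone 151 higher and 654 lower, and the authors' q 70 higher and 411 lower. In the knockdown comparison 32 rows were higher and 48 lower. They were 88 and 114 with a pseudocount of 0.1, 14 and 18 with 5, 224 and 233 at 1.5-fold, 8 and 10 at 4-fold, and 15 and 9 by the authors' q. Leaving out 15 rows with a value of exactly 1, an alternative chosen after seeing the data, gave 28 and 42.

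Of the pathway genes, 1 was higher and 20 lower in mammospheres. Lower ones were 12 with a pseudocount of 5, 31 at 1.5-fold, 9 at 4-fold, 11 after centring, 12 with equal upper quartiles and 9 by the authors' q. Higher ones were 4 at 1.5-fold, 3 after centring, 3 with equal upper quartiles, and 0 at 4-fold and by the authors' q. In the knockdown comparison a 1.5-fold limit gave 2 lower and 0 higher. The cause of these shifts was not tested. Of 773 counts and medians of single lists under alternatives, 672 stayed within 1.5 times (counts) or 0.3 (log2 medians) of the value given and 101 did not. Of 14 list medians 4 had the other sign after centring and 5 with equal upper quartiles, and 1 of 12 with a minimum of 5 FPKM; the other settings turned none.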
